A study of Homo sapiens with 6 samples.

Results

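The genes described here encode chaperones and folding catalysts that work in the endoplasmic reticulum (ER), sensors of the unfolded protein response (UPR) and the machinery of ER-associated degradation (ERAD). A list of 39 such genes was taken by name and not by any measured value. Of these, 36 were found on a probe set annotated with exactly 1 gene symbol, among 11963 genes named in this way. The probe set with the highest mean over all arrays stood for each gene. DNAJB11 and SYVN1 were on no probe set with 1 symbol, and PDIA5 was only on 1 probe set shared with another symbol, so these carry no value. The data are 6 Affymetrix GeneChip arrays of SH-SY5Y, a human neuroblastoma cell line of neuronal character. For 3 of them the cells received free bilirubin at 140 nM (Bf 140 nM), the fraction of unconjugated bilirubin (UCB) that is not bound to albumin, for 1 h. For the other 3 the medium held the solvent only, dimethyl sulfoxide at 0.6% (DMSO 0.6%), for the same time. Bilirubin was itself dissolved in DMSO, so the solvent is common to both groups, as are the serum-containing medium and the single cell line. Every treatment had its own flasks, and the replicates, numbered 1 to 3 in each group, are described as biological. Each array pools all cells of a flask, so fewer cells of a type and less RNA per cell cannot be told apart.

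The values are levels on the log2 scale left by variance-stabilizing normalization, so a step of 1 stands for 2-fold where signal is bright and understates the change near background. The noradrenergic markers PHOX2A, GATA2, GATA3, ISL1 and DBH had DMSO 0.6% means from 12.21 to 13.20, and the neuronal marker STMN2 had 13.23. HAND2 at 7.87 and TH, the enzyme that starts catecholamine synthesis, at 6.50 were dimmer. The leukocyte marker PTPRC was at 6.30. Of the 8 mesenchymal markers, COL3A1 was at 10.60 and FN1 at 10.42, and the other 6 lay between 6.88 for CD44 and 8.94 for LUM. Both replicate 3 arrays stood apart from the rest. Their actin control probe sets were brighter at the 3′ than at the 5′ end by 1.49 in Bf 140 nM and 1.90 in DMSO 0.6%, against 0.10 to 0.50 on the other arrays. Array medians lay between 7.73 and 7.97, with both replicate 3 arrays below the other 4. Replicate 3 holds 1 array of each group, so this difference lies across the treatment comparison and widens its error.

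Proteins that enter the secretory pathway fold in the ER lumen, where HSP70 and HSP90 family chaperones, a lectin cycle for glycoproteins, disulfide isomerases and prolyl isomerases assist them. Chains that fail to fold are recognised, pulled back into the cytosol and degraded by the proteasome. When misfolded protein builds up, the sensors IRE1, ATF6 and PERK signal it, and the transcription of many of these genes rises, in part through XBP1, which is made active by an unconventional splicing of its mRNA. The comparison at 1 h asks whether any of this transcript program had moved early in the exposure to bilirubin.

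Some promoters of the listed genes hold short elements through which ATF6 and XBP1 are known to act, and these are shown because they are what part of the list shares apart from its levels. RefSeq promoter windows (assembly GRCh38.p14, from 250 bases before to 50 after each annotated start) matched 36 of the 39 listed genes, with 48 windows in all. PDIA3, FKBP14 and DERL1 had no window. The ER stress response element, searched as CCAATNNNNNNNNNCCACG on both strands, was present in 9 of these 36 genes (25%), against 25 of 27305 genes (0.0916%) and 27 of 35116 windows (0.0769%) in the whole table. The 9 genes were HSPA5, HSP90B1, CALR, CANX, PDIA6, ERO1B, CRELD2, SERP1 and XBP1. The element was first defined on promoters of ER chaperone genes, so its presence in them is not independent of how it was found. The following windows hold the element in capitals with up to 12 bases on either side, on the strand of the gene.
HSPA5: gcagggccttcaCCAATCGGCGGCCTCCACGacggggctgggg
HSP90B1, distal copy: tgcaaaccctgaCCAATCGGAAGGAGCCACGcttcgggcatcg
HSP90B1, proximal copy: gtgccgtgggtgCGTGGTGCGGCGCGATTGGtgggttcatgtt
CALR: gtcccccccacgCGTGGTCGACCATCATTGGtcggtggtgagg
CANX: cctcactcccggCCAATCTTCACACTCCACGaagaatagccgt
PDIA6: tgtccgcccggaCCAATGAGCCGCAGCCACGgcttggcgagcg
XBP1: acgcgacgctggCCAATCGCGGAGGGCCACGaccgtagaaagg

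These windows lie at chr9:125241379-125241421 on the minus strand for HSPA5, at chr12:103930204-103930246 and chr12:103930309-103930351 on the plus strand for HSP90B1, and at chr19:12938372-12938414 on the plus strand for CALR. Those of the other genes lie at chr5:179698766-179698808 on the plus strand for CANX, at chr2:10812841-10812883 on the minus strand for PDIA6 and at chr22:28800591-28800633 on the minus strand for XBP1. All of these bases are upstream of an annotated transcript start. The element of HSPA5 spans positions -66 to -48 and that of XBP1 positions -52 to -34, counted from 0 at the start. In the proximal copy of HSP90B1 and in CALR the element runs on the opposite strand and therefore reads as its reverse complement. CANX has several annotated starts, and 1 and the same element is found in more than 1 of its windows.

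A shorter form of the element, ATTGGNCCACG, was present in 3 of the 36 genes (8.33%), HYOU1, SDF2L1 and HERPUD1, against 0.0696% of all genes in the table. The UPR element TGACGTGG, to which XBP1 and ATF6 can bind, was present in HYOU1, DNAJC10 and VCP, again 8.33%, against 0.927% of all genes. HYOU1 carries 2 copies of the shorter form, and its UPR element at positions -188 to -181 overlaps the copy at positions -185 to -175. The shorter form is shown for HERPUD1 (chr16:56932013-56932047, plus strand), SDF2L1 (chr22:21642102-21642136, plus strand) and the proximal copy of HYOU1 (chr11:119057262-119057296, minus strand).
HERPUD1: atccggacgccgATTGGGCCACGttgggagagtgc
SDF2L1: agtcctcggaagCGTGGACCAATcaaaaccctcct
HYOU1, proximal copy: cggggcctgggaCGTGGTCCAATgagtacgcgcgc

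These are matches of letters in a window. A gene without any match, such as SEL1L, lacks only these letters in this window.

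Without bilirubin the members were bright as a group. Their median level in DMSO 0.6% was 10.00, against 8.33 over all genes, 32 of the 36 lay above the median of all genes by mean level, and 11 lay above percentile 90. Levels are probe set brightness, which depends on the probes as well as on the transcript, so the order below is one of signal and not of molecules. PDIA6, a disulfide isomerase, was the brightest at 12.97 ± 0.60 (SD, n = 3). HSPA5 followed at 12.63 ± 0.25, CANX at 12.52 ± 0.30 and P4HB at 12.15 ± 0.09. At the lower end were EDEM2 at 7.96 ± 0.12, DNAJC3 at 7.86 ± 0.33, ERN1 (IRE1) at 7.16 ± 0.36 and ERO1B at 6.64 ± 0.07. ERO1B was at percentile 13.7 of all genes, and the scale understates differences there. Of the 35 steps between neighbours in the order, 7 were larger than the SD of either neighbour and 6 separated the 3 DMSO 0.6% arrays of the neighbours completely. These 6 lay between CANX and P4HB, P4HB and PDIA3, DERL1 and DNAJB9, ERO1A and EDEM2, DNAJC3 and ERN1, and ERN1 and ERO1B. All other neighbours in the order overlapped in their DMSO 0.6% arrays.

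**Figure D1:**
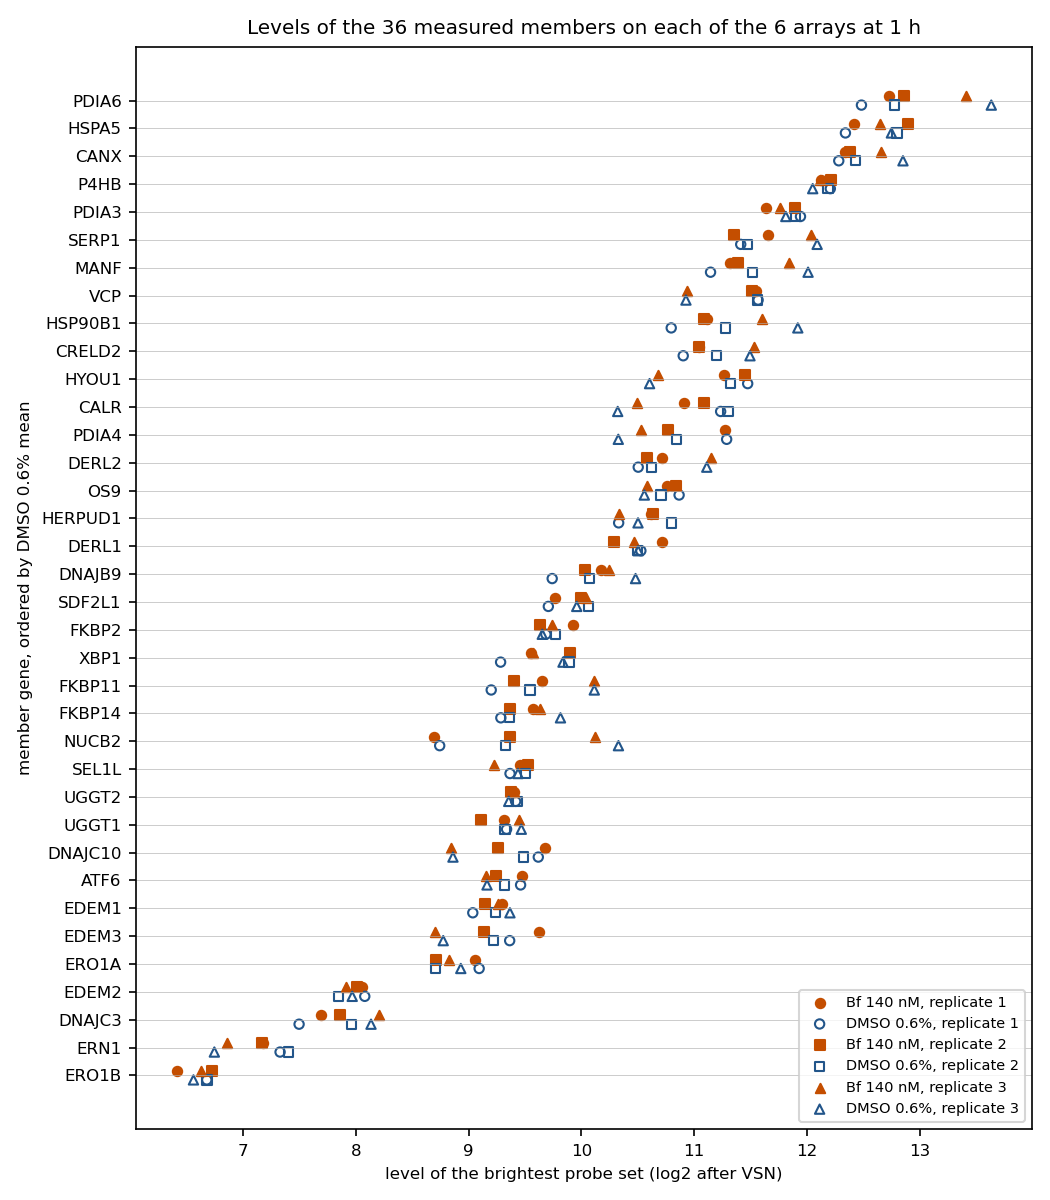
Level of each of the 36 measured members (log2 after VSN, horizontal axis) on each of the 6 arrays, with genes ordered by their DMSO 0.6% mean on the vertical axis. Filled symbols are Bf 140 nM, open symbols DMSO 0.6%, and the symbol shape gives the replicate number. Symbols of the same shape lie close together for most genes, and for NUCB2, PDIA6 and HYOU1 the replicate 3 triangles lie apart from the other 4 symbols.

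After 1 h at Bf 140 nM none of the measured members passed the test against DMSO 0.6%. Of the 36, 0 passed at a Benjamini-Hochberg adjusted p under 0.10 from limma, where 0 of the 11963 genes passed (0%). At an unadjusted p under 0.05, limma gave 0 members and 7 of all genes (0.0585%). With the replicate number as a block, 0 members and 0 genes (0%) passed the adjusted threshold, and 0 members and 99 genes (0.828%) had an unadjusted p under 0.05. Both unadjusted shares are below the fraction of 0.05 that this threshold would give if nothing differed. Without the block the variation between replicate numbers counts as error, so a call was hard to reach. That 0 members passed therefore does not show that none changed. Without both replicate 3 arrays, a removal chosen after seeing the data, 0 members passed with or without the block. The median difference of the members was -0.00 log2, against 0.01 over all genes, with 18 positive and 18 negative values from -0.12 for CALR to 0.10 for FKBP11. Among all genes 6945 differences were positive and 5018 negative. Regardless of sign, the median member differed by 0.03 log2, against 0.05 over all genes. The groups overlapped for every member, while 1.81% of all genes had all Bf 140 nM arrays above all DMSO 0.6% arrays and 0.577% had them all below.

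Without the replicate number in the model, what the comparison could show differed from gene to gene. The 95% confidence interval reached a median of 0.45 log2 on either side of a member's difference, against 0.31 over all genes, and 0.19 for both with the replicate number as a block. For 23 of the 36 members the interval lay within 1.5-fold of no change (0.585 log2), and for 35 within 2-fold. With the block all 36 lay within 1.5-fold. NUCB2, with an interval of -1.28 to 1.14, was the exception at 2-fold, and with the block its interval was -0.26 to 0.12. The other 12 members whose interval without the block passed 1.5-fold were HSP90B1, HYOU1, CALR, DNAJC10, PDIA4, PDIA6, FKBP11, MANF, SERP1, EDEM3, DERL2 and VCP. Intervals given for single genes below are without the block unless stated. They include the variation between replicate numbers, and for HYOU1 the interval with the block was -0.20 to 0.20.

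**Figure D2:**
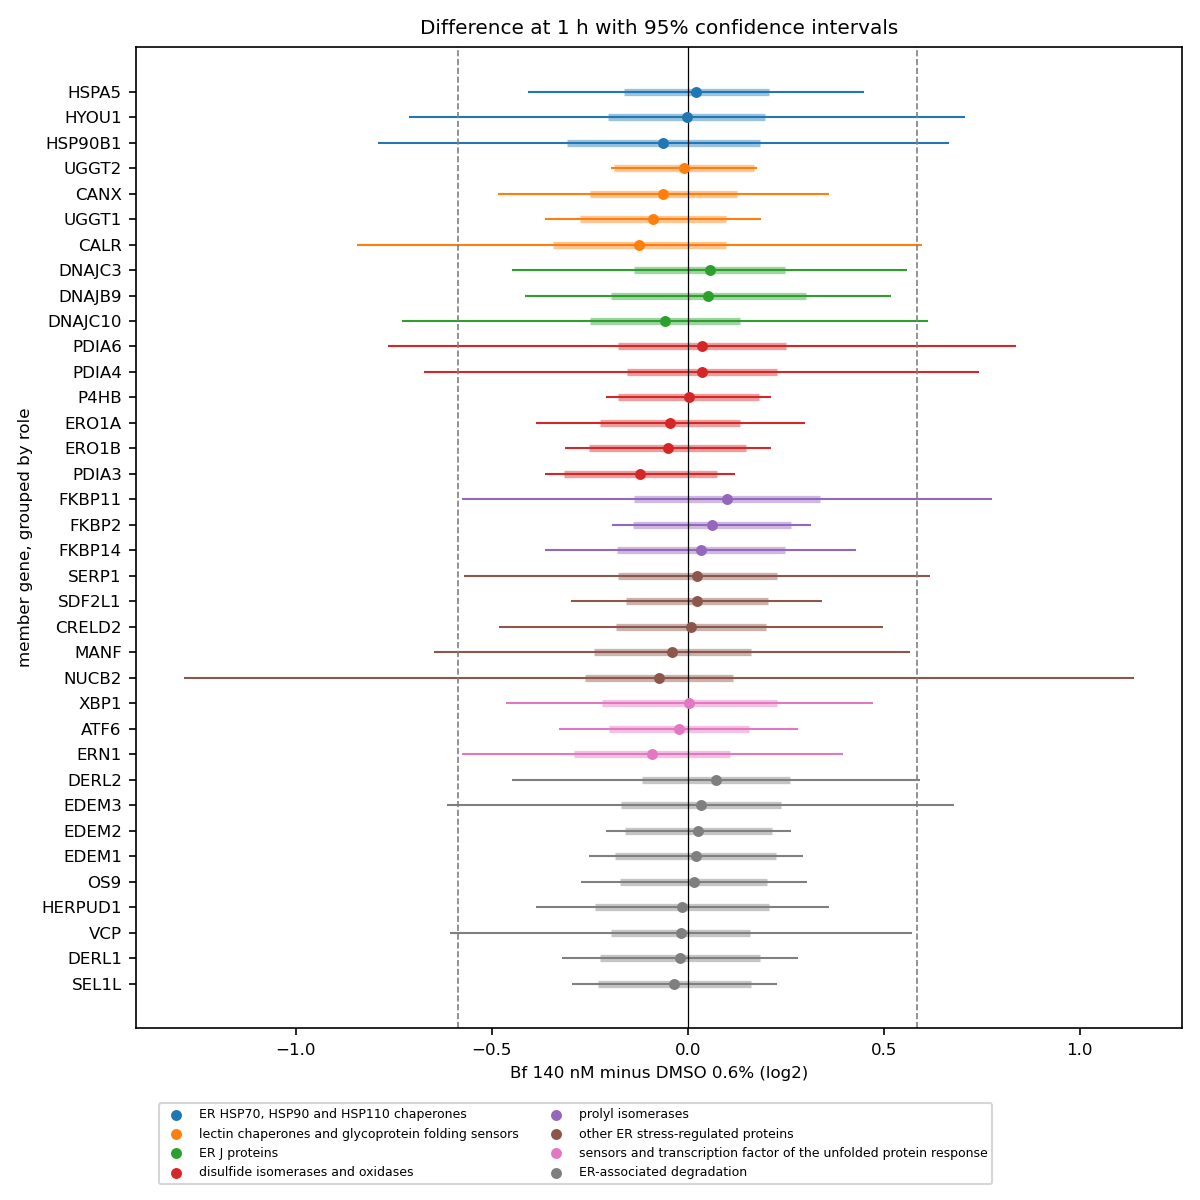
Difference between Bf 140 nM and DMSO 0.6% after 1 h (log2, horizontal axis) for the 36 measured members, grouped and coloured by role on the vertical axis. Points are limma differences over 3 arrays per group, thin lines are 95% confidence intervals without and thick lines with the replicate number as a block, and dashed lines mark 1.5-fold. Every interval includes 0, and the points lie between -0.12 and 0.10.

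HSPA5 (BiP), the ER member of the HSP70 family, was at 12.41, 12.90 and 12.64 in Bf 140 nM replicates 1, 2 and 3 and at 12.34, 12.80 and 12.75 in DMSO 0.6%. In both groups replicate 1 was the lowest, and the difference of 0.02 log2 (95% confidence interval -0.41 to 0.45) was smaller than the spread within either group. HSP90B1 (GRP94), the ER member of the HSP90 family, was at 11.12, 11.09 and 11.60 in Bf 140 nM and at 10.80, 11.28 and 11.92 in DMSO 0.6%. Its highest value in each group was that of replicate 3, and the difference was -0.06 log2 (-0.79 to 0.67). HYOU1 (GRP170), which exchanges the nucleotide of BiP, was at 11.27, 11.45 and 10.68 in Bf 140 nM and at 11.48, 11.33 and 10.61 in DMSO 0.6%. Here replicate 3 was the lowest in each group, and the difference was -0.00 log2 (-0.71 to 0.71). The adjusted p from limma was 1.00 for these chaperones and for each of the other members described next.

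All 4 members of the lectin cycle had negative differences on their brightest probe sets, and none passed the test. A dimmer probe set of CANX had a positive difference of 0.03 log2. CALR (calreticulin), a soluble lectin chaperone that also binds calcium, was at 10.91, 11.08 and 10.49 in Bf 140 nM and at 11.24, 11.30 and 10.32 in DMSO 0.6%. The Bf 140 nM array was the lower of the pair in replicates 1 and 2 and the higher in replicate 3, and the difference was -0.12 log2 (-0.84 to 0.60). CANX (calnexin), its membrane-bound relative, was at 12.34, 12.38 and 12.66 in Bf 140 nM and at 12.28, 12.43 and 12.85 in DMSO 0.6%, a difference of -0.06 log2 (-0.48 to 0.36). UGGT1 puts a glucose back on glycoproteins that have not folded and so returns them to the lectins. It was at 9.31, 9.11 and 9.44 in Bf 140 nM and at 9.34, 9.32 and 9.47 in DMSO 0.6%. The Bf 140 nM array was the lower of each pair, but the groups overlapped, and the difference was -0.09 log2 (-0.36 to 0.19). UGGT2, its homologue, differed by -0.01 log2 (-0.19 to 0.18) and had the narrowest spread between replicate means of any member, with all 6 arrays between 9.36 and 9.44.

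Among the J proteins, which stimulate the ATPase of BiP, DNAJB9 (ERdj4) was at 10.18, 10.03 and 10.24 in Bf 140 nM and at 9.74, 10.07 and 10.48 in DMSO 0.6%. The DMSO 0.6% arrays span the Bf 140 nM arrays on both sides, and the difference was 0.05 log2 (-0.41 to 0.52). DNAJC3 (p58IPK) was at 7.69, 7.86 and 8.21 in Bf 140 nM and at 7.50, 7.96 and 8.13 in DMSO 0.6%, a difference of 0.06 log2 (-0.45 to 0.56) at a level below the median of all genes. DNAJC10 (ERdj5), a reductase that opens disulfides of chains bound for degradation, differed by -0.06 log2 (-0.73 to 0.61).

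Disulfide isomerases form and rearrange disulfide bonds, and the oxidases ERO1A and ERO1B recharge them. PDIA3 (ERp57), which works with calnexin and calreticulin, was at 11.64, 11.90 and 11.76 in Bf 140 nM and at 11.94, 11.90 and 11.81 in DMSO 0.6%. Its difference of -0.12 log2 (-0.36 to 0.12) had the smallest p of all members before adjustment, 0.271 by limma, and the Bf 140 nM replicate 1 array lay lowest. PDIA6 (P5) was at 12.73, 12.86 and 13.41 in Bf 140 nM and at 12.48, 12.78 and 13.64 in DMSO 0.6%, a difference of 0.04 log2 (-0.76 to 0.84). PDIA4 (ERp72) was at 11.27, 10.77 and 10.53 in Bf 140 nM and at 11.29, 10.84 and 10.33 in DMSO 0.6%, a difference of 0.04 log2 (-0.67 to 0.74). For both, the distance between replicates 1 and 3 was larger than any distance within a pair. P4HB, the classical protein disulfide isomerase, was at 12.13, 12.21 and 12.11 in Bf 140 nM and at 12.21, 12.19 and 12.05 in DMSO 0.6%, a difference of 0.00 log2 (-0.21 to 0.21). ERO1B was at 6.41, 6.72 and 6.63 in Bf 140 nM and at 6.68, 6.68 and 6.56 in DMSO 0.6%, and differed by -0.05 log2 (-0.31 to 0.21). ERO1A differed by -0.04 log2 (-0.39 to 0.30). The 6 arrays of P4HB lay within 0.16 of each other on this probe set, while its other probe set spanned 1.55.

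The 3 prolyl isomerases had positive differences, and none passed the test. FKBP11 was at 9.65, 9.40 and 10.11 in Bf 140 nM and at 9.20, 9.55 and 10.11 in DMSO 0.6%, the largest positive difference of any member at 0.10 log2 (-0.58 to 0.78). Replicate 1 alone carries it, since the arrays of replicate 3 were nearly equal and in replicate 2 the Bf 140 nM array was the lower. FKBP2 was at 9.92, 9.63 and 9.74 in Bf 140 nM and at 9.69, 9.77 and 9.65 in DMSO 0.6%, a difference of 0.06 log2 (-0.19 to 0.31). FKBP14, which acts on collagens, differed by 0.03 log2 (-0.36 to 0.43).

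Of the other ER stress-regulated members, NUCB2, a calcium-binding protein and the precursor of nesfatin-1, varied most. It was at 8.69, 9.37 and 10.12 in Bf 140 nM and at 8.74, 9.33 and 10.33 in DMSO 0.6%. The arrays of 1 replicate number lay within 0.21 of each other while the numbers lay up to 1.51 apart, and the difference was -0.07 log2 (-1.28 to 1.14). The remaining members of this group differed by 0.02 log2 for SDF2L1 (-0.30 to 0.34), 0.01 for CRELD2 (-0.48 to 0.50), -0.04 for the secreted trophic factor MANF (-0.65 to 0.57) and 0.02 for the translocon-associated SERP1 (-0.57 to 0.62).

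Transcripts of the UPR regulators were likewise close in both groups. XBP1, the transcription factor activated by IRE1, was at 9.56, 9.90 and 9.57 in Bf 140 nM and at 9.28, 9.89 and 9.84 in DMSO 0.6%. The Bf 140 nM array was the higher in replicate 1 and the lower in replicate 3 by like amounts, and the difference was 0.00 log2 (-0.46 to 0.47). A probe set reads the total transcript, so the spliced form of XBP1 was not measured here. ERN1, which encodes the sensor and endonuclease IRE1, was at 7.18, 7.17 and 6.85 in Bf 140 nM and at 7.33, 7.40 and 6.74 in DMSO 0.6%, a difference of -0.09 log2 (-0.58 to 0.40). ATF6, a membrane-bound transcription factor released by proteolysis, differed by -0.02 log2 (-0.33 to 0.28). The gene of the sensor PERK, EIF2AK3, is outside the list. It differed by -0.08 log2 (-0.72 to 0.55) and was lower in Bf 140 nM in all 3 pairs, where 5.17% of all genes were.

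In the ERAD group HERPUD1, a membrane protein of the degradation complex, was at 10.62, 10.64 and 10.33 in Bf 140 nM and at 10.33, 10.80 and 10.50 in DMSO 0.6%. The Bf 140 nM array was the higher in replicate 1 and the lower in both other replicates, and the difference was -0.01 log2 (-0.39 to 0.36). SEL1L, the adaptor of the ubiquitin ligase SYVN1, was at 9.46, 9.52 and 9.23 in Bf 140 nM and at 9.37, 9.50 and 9.44 in DMSO 0.6%, a difference of -0.03 log2 (-0.29 to 0.23). DERL2, a membrane protein that helps chains leave the ER, was at 10.72, 10.59 and 11.15 in Bf 140 nM and at 10.50, 10.62 and 11.11 in DMSO 0.6%, a difference of 0.07 log2 (-0.45 to 0.59). EDEM2, a mannosidase that marks glycoproteins for disposal, was at 8.05, 8.01 and 7.91 in Bf 140 nM and at 8.08, 7.85 and 7.97 in DMSO 0.6%, a difference of 0.03 log2 (-0.21 to 0.26). The related mannosidases EDEM1 and EDEM3 differed by 0.02 log2 (-0.25 to 0.29) and 0.03 log2 (-0.61 to 0.68). DERL1 differed by -0.02 log2 (-0.32 to 0.28), the lectin OS9 by 0.02 (-0.27 to 0.30) and VCP (p97), the ATPase that extracts chains from the membrane, by -0.02 (-0.61 to 0.57). Thus the 9 measured ERAD members lay between -0.03 and 0.07 log2.

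The small differences were not of 1 sign across replicate numbers. Within replicate 1, 22 of the 36 members were higher in Bf 140 nM (61.1%, against 58.9% of all genes), within replicate 2, 12 were (33.3%, against 47.3%), and within replicate 3, 14 were (38.9%, against 54.5%). For pairs 1, 2 and 3 the median member differences were 0.07, -0.06 and -0.03 log2, against 0.03, -0.01 and 0.02 over all genes. On the brightest probe sets no member was higher in Bf 140 nM in all 3 pairs, where 11.1% of all genes were. UGGT1 and PDIA3 were lower in all 3 pairs, 5.56% of the members, where 5.17% of all genes were. For PDIA3 the 3 differences were -0.31, -0.00 and -0.05 log2.

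A positive value in pair 1 with negative values in pairs 2 and 3 was found in 12 members (33.3%), where 20.1% of all genes had it. The pattern was singled out after the values were seen, and no test was made of it. Its members were HSP90B1, CANX, DNAJB9, DNAJC10, FKBP11, MANF, SERP1, ATF6, HERPUD1, EDEM1, EDEM3 and DERL1. DNAJB9 showed it with 0.44, -0.04 and -0.24 log2, HERPUD1 with 0.29, -0.16 and -0.17, and HSP90B1 with 0.32, -0.19 and -0.32. Each value here compares 1 array with 1 array. Over all arrays, leaving out a single array turned the sign of the treatment difference in 8 to 18 of the 36 members, most often without the replicate 1 array of DMSO 0.6% and least often without the replicate 3 array of DMSO 0.6%, and such comparisons are no longer balanced over replicate numbers.

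**Figure D3:**
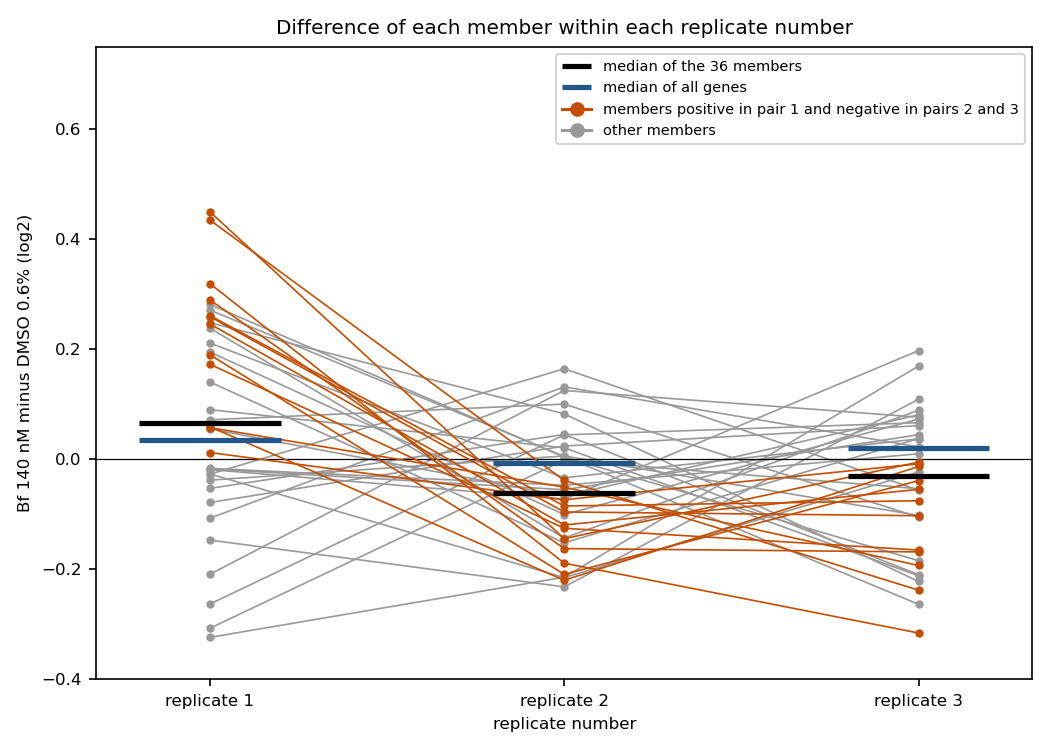
Difference between Bf 140 nM and DMSO 0.6% (log2, vertical axis) within each replicate number (horizontal axis), with 1 line per member. Members that were positive in pair 1 and negative in pairs 2 and 3 are in orange, the black bars are member medians and the blue bars the medians of all genes. The member medians are 0.07, -0.06 and -0.03 for pairs 1, 2 and 3.

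The members also varied between replicate numbers. The replicate means, taken over both treatments, spanned a median of 0.46 log2, against 0.26 over all genes. This span was larger than the treatment difference for 35 of the 36 members (97.2%), all but PDIA3, and for 93.3% of all genes, as a span of 3 means tends to exceed a difference of 2. For replicate 3 against the mean of replicates 1 and 2, fitted by limma with treatment in the model, 12 members were higher (33.3%) at an adjusted p under 0.10, where 20% of all genes were, and 9 were lower (25%), where 25.6% of all genes were. Their median size in this contrast was 0.34 log2, against 0.19 over all genes, which are also dimmer. Beside this stands the 3′ bias of the actin control on the same arrays, whose part in these differences was not tested. The balance of directions depended on the scaling. With equal array medians, which moved the median of all genes by 0.20 log2, 17 members were higher and 7 lower, so that 70.8% of the called members were higher in place of 57.1%. For all genes this share went from 43.9% to 78.5%. With quantile normalization 13 were higher and 11 lower (54.2%), against 59.4% for all genes. No called member changed direction under either scaling, but CANX and ATF6 lost their calls with quantile normalization, and ATF6 and OS9 lost theirs with equal array medians.

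NUCB2 was higher in replicate 3 by 1.19 log2 (limma adjusted p = 9.49e-07), with means of 8.72, 9.35 and 10.22 in replicates 1, 2 and 3. PDIA6 was higher by 0.81 (limma adjusted p = 5.61e-05) and HSP90B1 by 0.69 (limma adjusted p = 0.000546). The chaperone cofactor HYOU1 was lower by the contrast of -0.74 log2 (limma adjusted p = 6.73e-05), and CALR by that of -0.73 (limma adjusted p = 0.000166). Chaperones thus stood on both sides. The others called higher were CANX, DNAJB9, DNAJC3, FKBP11, FKBP14, CRELD2, MANF, SERP1 and DERL2, from 0.33 for FKBP14 to 0.66 for FKBP11. The others called lower were DNAJC10, PDIA4, ERN1, ATF6, EDEM3, VCP and OS9, from -0.66 for DNAJC10 to -0.21 for ATF6. HSPA5 at 0.08, XBP1 at 0.05, HERPUD1 at -0.18 and SEL1L at -0.13 did not pass in this contrast on their brightest probe sets. However, HSPA5 and XBP1 were called higher with equal array medians, and HERPUD1 was called lower with quantile normalization.

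Between replicates 1 and 2, where the actin control differed less, 3 members were higher in replicate 2, where 1.3% of all genes were, and 2 were lower, where 3.59% of all genes were. NUCB2 was higher by 0.63 log2 (limma adjusted p = 0.00881), XBP1 by 0.47 (limma adjusted p = 0.0727) and HSPA5 by 0.47 (limma adjusted p = 0.0336). PDIA4 and ERO1A were lower, with -0.47 log2 (limma adjusted p = 0.0372) and -0.37 (limma adjusted p = 0.0832). These calls rest on few arrays. The 5 became 0 without the replicate 2 array of Bf 140 nM, 1 without that of DMSO 0.6%, 2 without the replicate 1 array of DMSO 0.6%, and 9 without either replicate 3 array. The split of 3 higher and 2 lower was 4 and 1 with quantile normalization and 3 and 1 with equal array medians.

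Of the 36 members 16 had several probe sets, and these did not always point the same way between replicate numbers. In the replicate 3 contrast 4 of the 16 (25%), CANX, PDIA4, PDIA6 and ATF6, had probe sets called in both directions, where 18.1% of all genes with several probe sets did. For 6 of the 16 (37.5%) the probe sets had both signs, where 53.3% of all such genes did. The brightest CANX probe set was 0.40 log2 higher in replicate 3, while the next brightest was at 11.35, 11.27 and 9.90 in Bf 140 nM and at 11.32, 11.20 and 9.92 in DMSO 0.6%, a contrast of -1.37. ATF6 was opposite, with -0.21 on its brightest probe set and 1.33 on the other, which was at 8.16, 7.98 and 9.21 in Bf 140 nM and at 7.94, 7.81 and 9.40 in DMSO 0.6%. PDIA4 gave -0.62 and 0.68, and PDIA6 gave values from -0.62 to 0.81 on its 4 probe sets. Every CALR probe set was lower, by contrasts from -0.73 to -2.86 log2, and both HSP90B1 probe sets were higher, by 0.69 and 1.13. The smaller values of ATF6 and CANX, -0.21 and 0.40, are those that lost their calls under another scaling. P4HB, not called on its brightest probe set at -0.10, had a contrast of -1.37 on its other one, with limma adjusted p = 7.17e-07. SEL1L and DERL1, also not called on their brightest probe sets, each had 1 dimmer probe set called lower, at -0.50 and -0.64. DNAJC10 and VCP, called lower on their brightest probe sets, were not called on their other ones, at 0.05 and -0.06. For these genes the direction or the size between replicate numbers thus differed from probe set to probe set. Dimmer probe sets also differed in the pairs, since 1 each of PDIA4, FKBP11 and SERP1 was higher in Bf 140 nM in all 3 pairs and 1 of CANX was lower in all 3, unlike the brightest ones. In the treatment comparison no probe set of these 16 genes passed, with differences from -0.19 on 1 probe set of CALR to 0.11 on 1 of SEL1L. The members HSP90B1, CALR, EDEM3 and OS9 are represented by probe sets of the _x_at type, whose probes can also match other transcripts.

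**Figure D4:**
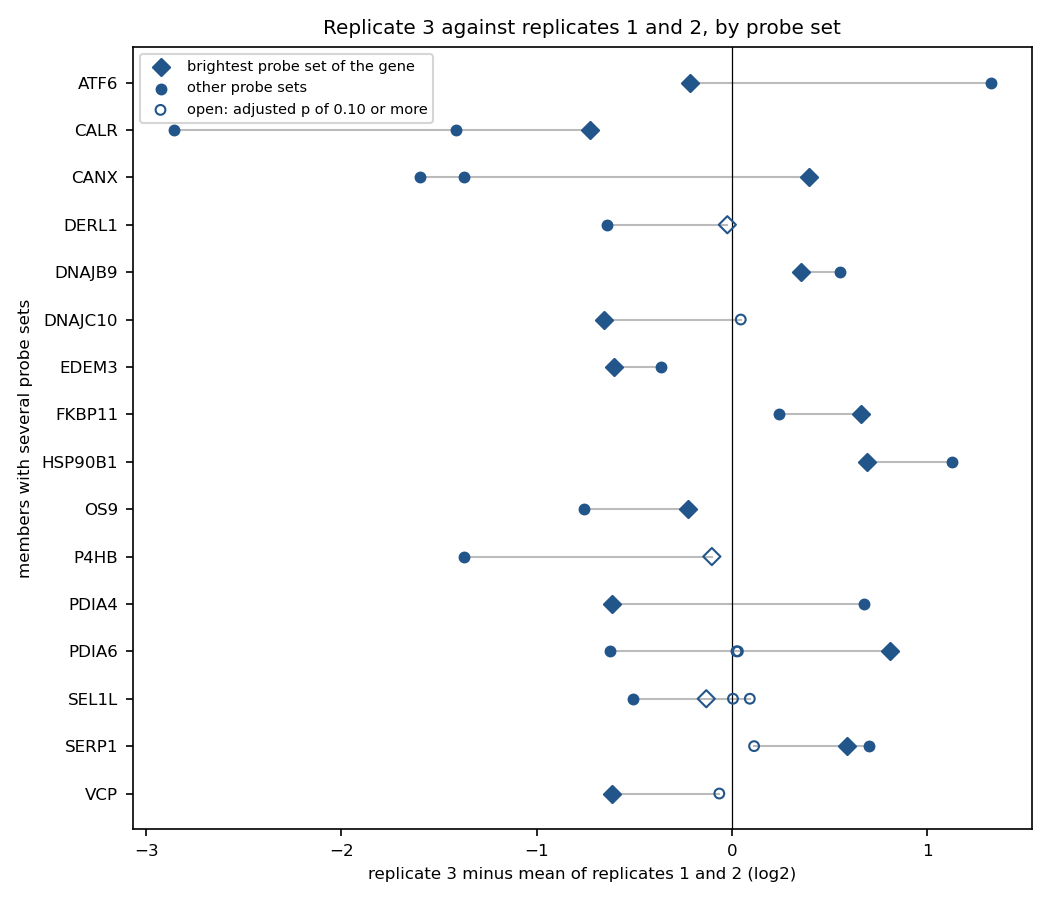
Replicate 3 minus the mean of replicates 1 and 2 (log2, horizontal axis) for every probe set with 1 symbol of the 16 members that have several. Diamonds are the brightest probe set of each gene, circles the others, and open symbols had a limma adjusted p of 0.10 or more. CANX spans -1.60 to 0.40 and ATF6 -0.21 to 1.33, while the CALR values are all negative and the HSP90B1 values all positive.

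The 9 members with the ER stress response element had a median treatment difference of 0.00 log2, with values from -0.12 to 0.04, and the 24 matched and measured members without it had a median of -0.00. In pairs 1, 2 and 3 the medians were 0.14, -0.05 and -0.11 with the element and 0.03, -0.07 and -0.01 without it. Those with it were brighter, with a median DMSO 0.6% level of 11.33 against 9.54. In the replicate 3 contrast 5 of the 9 were called higher and 1 lower. Of the other 24, 6 were called higher and 8 lower. Over all genes 20% were called higher and 25.6% lower. The 5 include CANX and PDIA6, which also had probe sets called lower, and CANX lost its call with quantile normalization. All these values describe small lists, and no test of the element was made.

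Genes of the same pathways outside the list did not pass in the treatment comparison either. Of 70 further genes of folding, ERAD and UPR regulation 57 were measured, 0 passed at an adjusted p under 0.10 by limma, and their median difference was -0.02 log2. RAD23B, a shuttle to the proteasome, had the smallest p. It was at 11.34, 11.55 and 11.32 in Bf 140 nM and at 11.42, 11.88 and 11.47 in DMSO 0.6%, a difference of -0.18 log2 (-0.55 to 0.18). CREB3L2, a membrane-bound transcription factor, differed by -0.15 (-0.50 to 0.21), UFD1, a cofactor of VCP, by 0.08 (-0.15 to 0.32), and CCDC47 by -0.16 (-0.60 to 0.29). The membrane protein TMEM259 was the only one of the 57 with an unadjusted limma p under 0.05 when the replicate number was a block, at -0.25 log2 (-0.45 to -0.04 with the block). Without the block its interval was -1.91 to 1.41.

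These 57 genes also varied between replicate numbers. By limma at the same threshold, 17 of them (29.8%) were higher in replicate 3, against 20% of all genes, and 18 (31.6%) were lower, against 25.6%. The 4 with the smallest p were all lower. TMEM259 and GANAB, a glucosidase that trims glycans before the lectin cycle, had contrasts of -1.80 and -1.72 log2. KDELR1, a receptor that returns escaped ER proteins, had -1.82, and MBTPS2, a protease that releases ATF6, had -1.41. In the other direction UBXN4 had 1.15 and the lectin chaperone CLGN had 0.90, both named after their values were seen. KDELR1 stood at 9.65, 9.18 and 7.81 in Bf 140 nM and at 9.82, 9.31 and 7.52 in DMSO 0.6%. In replicate 2 against replicate 1 only PPIC, a prolyl isomerase, was higher, by 0.40 log2 (1.75% of the 57, against 1.3% of all genes). YOD1, KDELR1 and CREB3 were lower, with -0.52, -0.49 and -0.41 (5.26%, against 3.59% of all genes).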

How the data were processed

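The 6 arrays of the 1 h time point were used, grouped by the titles of the samples, with 3 per group. The authors obtained cell intensities from GCOS and normalized them by VSN (variance stabilization) in R 2.5.0. The deposited log2 values form a table with 1 column for each array. The sources used here give neither the summarization of probes nor the arrays normalized together. Base 2 was read from the method and the values' span. The Present-call filter of the methods could not be repeated. Of 22277 probe sets 62 controls were left out. Of the other 22215, 19064 carried 1 symbol in the platform annotation, 1043 several and 2108 none.

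Groups were compared with limma 3.58.1 (lmFit and eBayes) in R 4.3.3 on all 22215 probe sets, two-sided, with Benjamini-Hochberg adjustment and a threshold of 0.10. It stands in for SAM, the method of the study, at the same FDR level. Replicate contrasts came from a model of treatment and replicate number. The fits were also run on simulated data, and the outcome of that run is not reported here. Arrays sharing a number deviated together from the means of their groups, with correlations of 0.725, 0.783 and 0.880 for numbers 1, 2 and 3, and by this check of the values the numbers pair the samples. Since the means include replicate 3, the values for 1 and 2 can be raised by it. The descriptions of the samples carry a further number, 3, 5 or 6, that matches between the groups in the same way as the replicate number, and its meaning is not stated. The methods name no pairing, so the fit without the block leads, and its intervals include the variation between replicate numbers. The array number limits the precision. In the fit without the block, p-values measure the spread between these cultures. In the block fit and the replicate contrasts, they measure only what remains after treatment and replicate number are fitted. Each replicate number holds 1 array of each group, so p-values of the replicate contrasts do not measure how cultures of the same number would vary.

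The members, lists and tests were chosen with earlier results of these data known. Every member is named. Values per array are given for the 4 brightest and 4 dimmest in DMSO 0.6%, the 4 largest differences of each sign, the 4 smallest p, the 4 largest replicate contrasts of each kind, and the genes HSPA5, XBP1, HERPUD1, DNAJB9, HSP90B1 and SEL1L, and of the other pathway genes up to 4 with the smallest p in each contrast are named. EIF2AK3 was named as well, as the gene of the sensor PERK. Promoter windows were scanned with exact matches. Protein features were not analysed here. Other settings tried were leaving out each array, the replicate block, equal array medians, quantile normalization, a filter at the median level, trend and robust eBayes, and averaging a gene's probe sets. Removal of both replicate 3 arrays, natural logs and the block for the count of intervals within 1.5-fold were added after seeing the data.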

Additional observations from a re-analysis of the deposited data

How the results depend on the processing

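No member passed in the treatment comparison under any alternative run, and with the replicate block 0 probe sets and 0 members passed. The block, which pairs the samples by number, changed no call of a member. Without both replicate 3 arrays and with the block, a setting chosen after seeing the data, 25 of the 22215 probe sets passed in place of 0, none of them the probe set of a member. The count of members whose interval lay within 1.5-fold of no change, 23, became 36 with the replicate block and 15 when the values were read as natural logs, both tried after seeing the data. The median member difference lay between -0.068 and 0.011 log2 when each array was left out in turn, and it was -0.068 without the replicate 1 array of DMSO 0.6%. The sign of a member's difference was not stable: it turned for 18 of the 36 without that array, for 16 without the replicate 3 array of Bf 140 nM, for 4 with equal array medians, and for 0 with quantile normalization. In the replicate 3 contrast 10369 probe sets passed over all arrays and 6907 with the filter at the median level, which tests fewer probe sets. Leaving out each array gave 7689 to 11120 probe sets and 18 to 22 members in place of 21. For replicate 2 against replicate 1, 1035 probe sets and 5 members passed, and leaving out each array gave 132 to 2783 probe sets and 0 to 9 members. The cause was not tested. Detection calls were not used here, so signal over background was not measured, and the interval without the block was widest for NUCB2.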
